A study of Mus musculus with 22 samples.

Results

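The comparison described here set liver cells of diet-fed mice collected in the middle of the light phase against those collected in the middle of the dark phase, across all genes. Its members were chosen by feeding group and zeitgeber time: 3 libraries of ZT6 and 3 of ZT18 from mice on the CDA-HFD, 6 of the 22 RNA-seq libraries in the series. The CDA-HFD is a high-fat diet that lacks choline and is used to produce steatohepatitis with fibrosis (MASH) in mice. Zeitgeber time counts hours from lights on, so ZT6 was 13:00 and ZT18 was 01:00 by the clock, and lights went off at ZT12. Per the labels, all mice were 20 weeks old, the diet started at 8 weeks of age and lasted 12 weeks, although another field of the diet samples gives 6 months, and no further treatment or genotype is named. The chow groups used beside them were control mice of the same age at the same times, 2 libraries at ZT6 and 3 at ZT18. Whether every library had its own animal is not stated in the labels, so p-values rest on the variation from library to library, part of which could be technical.

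The cells are labelled HSC, hepatic stellate cells, the liver pericytes that store vitamin A and turn into matrix-producing cells in fibrosis. In most tissues a cell-autonomous clock runs on a loop in which BMAL1 (Arntl) and CLOCK switch on the Per and Cry repressors, the nuclear receptors REV-ERBα (Nr1d1) and REV-ERBβ (Nr1d2), and PAR bZIP factors such as DBP. REV-ERB proteins in turn repress Arntl. In nocturnal rodents on a normal regime, liver Nr1d1 and Dbp transcripts are high in the later light phase and low at night, and body temperature and feeding, which peak in the dark, set rhythms of heat shock, cold-inducible and endoplasmic reticulum (ER) chaperone genes.

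The marker genes of the labelled cell type were weak in these libraries. Levels are given as CPM, a gene's read count as a rate of its library's total, with totals adjusted by TMM. The 23 stellate cell and fibroblast markers that passed the filter on low counts (of 24) summed to 214–350 CPM at ZT6 and 381–444 CPM at ZT18. Lrat, the enzyme that makes retinyl esters in stellate cells, stood at 1.46, 1.59 and 1.09 CPM at ZT6 and at 0.642, 2.0 and 3.65 CPM at ZT18. Col1a1, a chain of type I collagen, stood between 4.72 and 8.49 CPM at ZT6 and between 6.15 and 8.14 CPM at ZT18. The lists of other cell types were present too: 29 T and NK cell markers summed to 9439–11750 CPM at ZT6 and 6017–8065 CPM at ZT18, and 28 macrophage markers to 5446–8899 and 6151–8401 CPM. No member of these lists was at 0 in all 6 libraries. The sums are not per length, so they do not rank cell types, but the libraries held RNA of several cell types, and in such bulk samples fewer cells of a type and less RNA per cell cannot be told apart.

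The libraries held 19754805–28288127 counts at ZT6 and 26222843–34975379 at ZT18. Of 55367 listed genes, 22409 passed the filter and were tested, and 82 were called (edgeR's quasi-likelihood test, Benjamini-Hochberg adjusted p under 0.05). That is 0.366% of the genes tested. At ZT6, 31 genes were higher (0.138% of those tested) and 51 were lower (0.228%), and 12 of the higher and 25 of the lower genes differed by over 2-fold. When libraries were scaled by their total counts alone, the split was 26 higher and 96 lower. The median log2 change over all genes, always ZT6 minus ZT18, was 0.006. In all 82 called genes the 3 libraries of ZT6 did not overlap those of ZT18, against 4218 of all genes tested (18.8%), of which 2037 were higher (9.09%) and 2181 lower (9.73%) at ZT6. The number called fell from 82 to 46, 33 and 45 without replicates 1, 2 and 3 of ZT6, to 51 and 30 without replicates 1 and 2 of ZT18, and to 64 without its replicate 3.

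**Figure D1:**
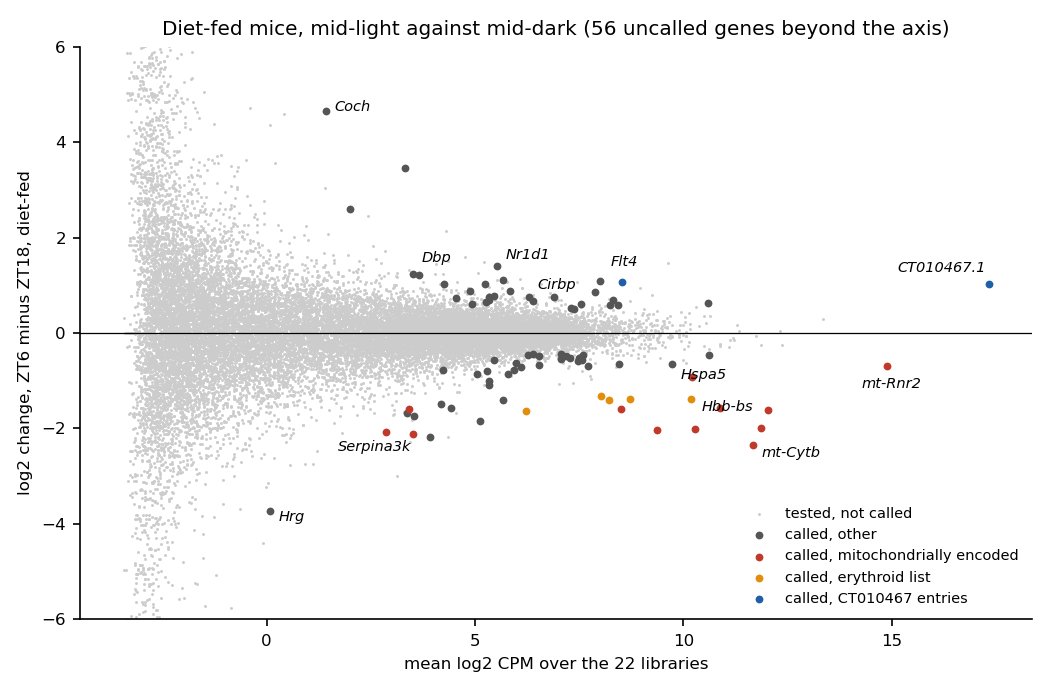
Each point is a gene tested, by its mean log2 CPM over the 22 libraries (x axis) and its fitted log2 change, ZT6 minus ZT18, in diet-fed mice (y axis). Coloured points are the 82 called genes: mitochondrially encoded and erythroid genes lie below 0, and the CT010467 entries lie above it.

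The most abundant gene to move was a ribosomal RNA entry. CT010467.1, annotated as rRNA in GENCODE M21 (GRCm38, chromosome 17, 39846353 to 39848827), stood at 205300, 197400 and 178500 CPM at ZT6 and at 95540, 91840 and 95890 CPM at ZT18. Every ZT6 library was thus well above every ZT18 library, and the log2 change was 1.04 ± 0.11 (standard error, adjusted p = 3.64e-05, edgeR). As a share of all counts, this entry took 19.1–21.6% at ZT6 and 9.98–10.5% at ZT18. It took 20.2–21.7% at ZT0 and 17.8–19.1% at ZT12 in diet-fed mice, so ZT18 stood alone among the 4 times. In chow-fed mice it also rose at ZT6, by a log2 of 0.74 (adjusted p = 0.00252, edgeR), and the difference between the diets was not called (interaction adjusted p = 0.443). A neighbouring entry, CT010467.2, annotated as an unprocessed pseudogene, rose by 1.07 ± 0.19 on the log2 scale, and Mir6236, Gm23935, Lars2 and Gm15564 rose by 0.86, 1.03, 0.63 and 0.59. These entries were set beside CT010467.1 after their values were seen. On chow CT010467.2 had -0.52 and Mir6236 -0.002, and for both the diets differed (interaction 1.59 and 0.86, adjusted p = 0.0119 and 0.0289, edgeR). For Gm23935, Lars2 and Gm15564 the difference between the diets was not called (adjusted p = 0.241, 0.193 and 0.264, edgeR).

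**Figure D2:**
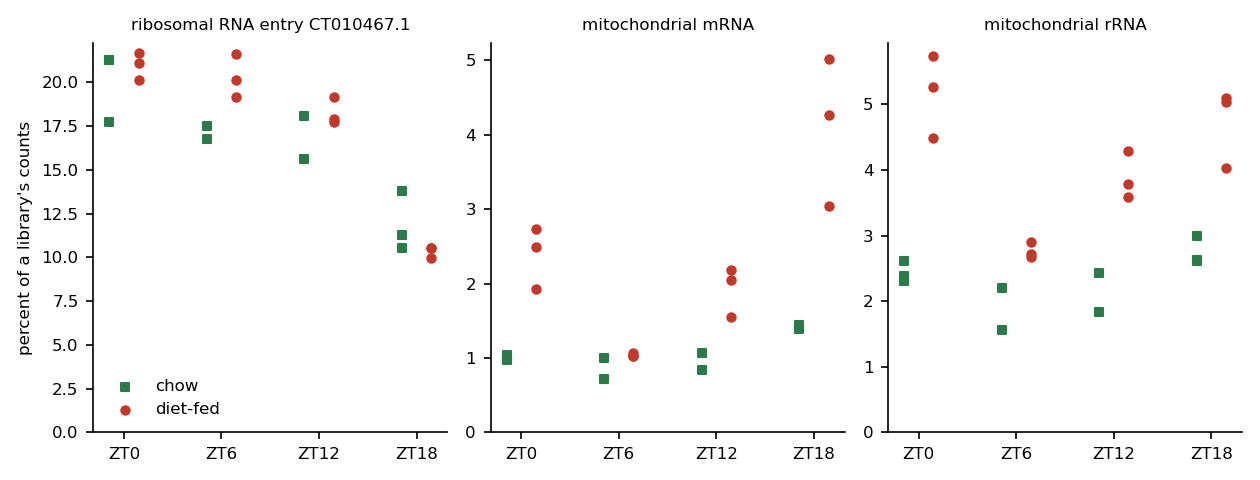
Percent of each library's counts (y axis) taken by CT010467.1, by the mitochondrial mRNA genes and by the mitochondrial rRNA genes, for each library by zeitgeber time (x axis), chow as squares and diet-fed as circles. In diet-fed mice CT010467.1 was at 9.98–10.5% at ZT18 and at 17.8% or more at the other times, while mitochondrial mRNA ran from 1.03–1.06% at ZT6 to 3.04–5.03% at ZT18.

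Mitochondrially encoded transcripts moved the other way and held the smallest adjusted p-values. Of the 13 protein genes on the mitochondrial genome, 8 were tested, all 8 were lower at ZT6 without overlap of the libraries, and 7 were called, with a list median of -1.96 against 0.006 over all genes. The other 5 (mt-Nd4l, mt-Co2, mt-Co3, mt-Atp6 and mt-Atp8) had no count in any of the 6 libraries. The summed level of the 8 was 9822–10100 CPM at ZT6 and 27700–46240 CPM at ZT18.

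mt-Cytb, the cytochrome b subunit of complex III (mitochondrial genome, 14145 to 15288), stood at 1767, 1983 and 1965 CPM at ZT6 and at 9873, 12620 and 6599 CPM at ZT18, a log2 change of -2.35 ± 0.20 (adjusted p = 4.44e-06, edgeR). mt-Nd1, a complex I subunit, stood at 2240, 2365 and 2358 CPM at ZT6 and at 9725, 11110 and 6963 CPM at ZT18. The ZT6 libraries lay close together in both genes, while replicate 2 of ZT18 was the highest and replicate 3 the lowest of that group. mt-Nd4 fell by 2.02, mt-Nd2 by 2.03, mt-Co1 (complex IV) by 1.62, mt-Nd6 by 1.60 and mt-Nd5 by 1.56 on the log2 scale. Of the mitochondrial tRNA genes, mt-Tq fell by 2.11, mt-Tm by 2.08 and mt-Tp by 1.60. The mitochondrial rRNA genes mt-Rnr1 and mt-Rnr2 fell by 0.93 and 0.70.

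For the 10 called mitochondrial mRNA and tRNA genes the diet-fed ZT0 and ZT12 means lay between, while mt-Rnr1 and mt-Rnr2 were higher at ZT0 than at ZT18 (2075 against 1709 CPM and 49420 against 41430 CPM). mt-Cytb averaged 4728 CPM at ZT0 and 3612 CPM at ZT12, so for this gene ZT6 was the lowest and ZT18 the highest of the 4 times. On chow, mt-Cytb averaged 2012 CPM at ZT6 and 3281 CPM at ZT18, a log2 change of -0.70 that was not called (adjusted p = 0.0647), and the difference between the diets was called (interaction log2 -1.64, adjusted p = 0.00901, edgeR). The interaction was called for 7 of the 8 mitochondrial mRNA genes, against 0.919% of all genes tested. For mt-Cytb, mt-Nd1, mt-Nd2 and mt-Nd4 it was called in all 18 alternative fits that held them. For mt-Nd5, mt-Nd6 and mt-Co1 it was called in 13, 12 and 7 of 18. Beside this, the ribosomal RNA entry moved in the opposite direction in the same libraries, and its part in the mitochondrial values was not tested. With ribosomal and mitochondrial RNA left out before scaling, an alternative chosen after seeing the data, 66 genes were called, 27 higher and 39 lower, and all 66 were among the 82.

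Among 25 core clock genes, all tested, 2 rose at ZT6 and none fell, against 0.138% and 0.228% of all genes tested, and the list median was -0.11. Nr1d1, which encodes REV-ERBα (chromosome 11, 98767932 to 98775333), stood at 48.4, 55.1 and 37.7 CPM at ZT6 and at 18.5, 16.7 and 17.9 CPM at ZT18. All 3 libraries of ZT6 were above those of ZT18, with a log2 change of 1.41 ± 0.22 (adjusted p = 0.00327, edgeR). Dbp (chromosome 7, 45705088 to 45710203) stood at 10.4, 13.1 and 11.1 CPM at ZT6 and at 5.54, 4.37 and 4.79 CPM at ZT18, a rise of 1.24 ± 0.22 (adjusted p = 0.0118, edgeR). In diet-fed mice Nr1d1 averaged 23.2 CPM at ZT0 and 34.7 CPM at ZT12, and Dbp 3.99 and 12.4 CPM, so ZT6 was the highest time for Nr1d1 while ZT12 was above it for Dbp.

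On chow the same hours differed far more in Nr1d1. Its chow means were 403 CPM at ZT6 and 29.7 CPM at ZT18, a log2 change of 3.76 (adjusted p = 5.69e-08), and the difference between the diets was called (interaction log2 -2.35 ± 0.32, adjusted p = 0.00281, edgeR). Dbp changed by 2.11 on chow (means of 53.7 and 12.4 CPM), and its difference between the diets was not called (interaction -0.87, adjusted p = 0.212). For both genes the ZT18 levels of the diets were nearer each other than the ZT6 levels were.

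The other limbs of the clock showed no call in diet-fed mice. Per3, a Period family repressor, stood at 13.2, 10.6 and 13.5 CPM at ZT6 and at 6.21, 6.79 and 6.71 CPM at ZT18, without overlap, but missed the threshold (log2 0.92 ± 0.22, adjusted p = 0.0716, edgeR). On chow Per3 went from 22.2 CPM at ZT6 to 33.0 CPM at ZT18, and the difference between the diets was called (interaction 1.49, adjusted p = 0.0311, edgeR). Nr1d2 had a log2 change of 0.52 (adjusted p = 0.2), and Arntl, the clock activator that REV-ERB proteins repress, of -0.53 (adjusted p = 0.526). Cry1, a cryptochrome repressor, had -0.58 (adjusted p = 0.324) against -2.10 on chow, where it averaged 17.98 CPM at ZT6 and 77.3 CPM at ZT18, and Per1 had -0.11 (adjusted p = 0.91) against -1.19 on chow. Both of these differences between the diets were called (interaction 1.52 and 1.08, adjusted p = 0.0307 and 0.0313, edgeR). Wee1, a cell cycle kinase under clock control, changed by 0.15 in diet-fed mice and by -2.29 on chow, where it averaged 6.23 and 30.5 CPM. In all, the interaction was called for 4 of the 25 clock genes (Nr1d1, Per3, Cry1 and Per1), against 0.919% of all genes tested. Without replicate 2 of chow ZT6 those of Per3, Cry1 and Per1 were not called (adjusted p = 0.235, 0.084 and 0.242, edgeR), while that of Nr1d1 was called in all 19 alternative fits. Without overlap of the diet-fed libraries 4 clock genes were higher and 4 lower at ZT6, against 9.09% and 9.73% of all genes.

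**Figure D3:**
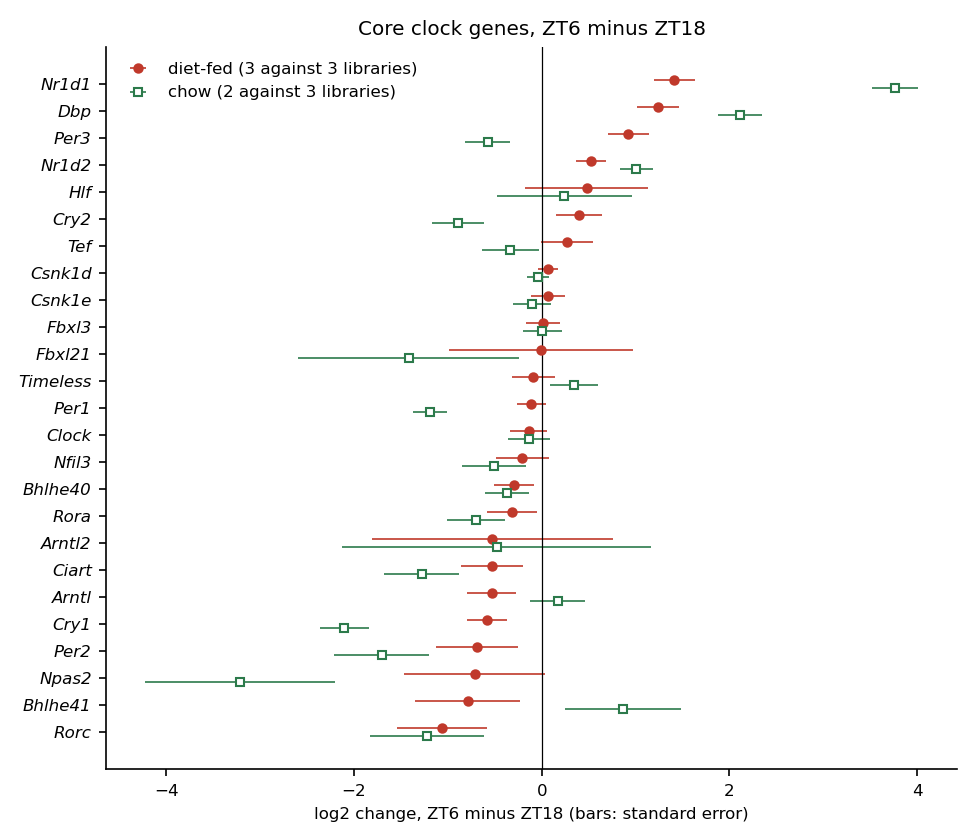
Log2 change of the 25 core clock genes (x axis, ZT6 minus ZT18, with standard errors) in diet-fed mice (red circles) and on chow (open green squares). Nr1d1 is the highest in both, at 1.41 and 3.76, and Cry1, Per1 and Per3 are the other genes whose change differed between the diets.

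The promoter of Per3 is shown because that gene, unlike most of the clock list, holds D-boxes there, the sites that DBP and its relatives bind. The sequence is the 250 bases before the RefSeq start, chr4:151044666-151044915 on the minus strand (GRCm38.p6), 5′ to 3′, with the D-box letters TTATGTAA in capitals.
Per3: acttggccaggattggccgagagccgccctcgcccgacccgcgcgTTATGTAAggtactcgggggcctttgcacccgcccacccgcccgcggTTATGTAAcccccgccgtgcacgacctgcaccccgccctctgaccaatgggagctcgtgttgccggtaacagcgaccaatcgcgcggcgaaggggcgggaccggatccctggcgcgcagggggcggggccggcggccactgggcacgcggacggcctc
Both copies read on the gene's own strand and begin 205 and 158 bases before the start. On either strand TTATGTAA occurs in 0.938% of the 32851 promoter windows in the table (250 bases before to 50 after each start), and among the 20 clock genes that have a window, in Per3 and Timeless. A match of letters is a description and not a bound site.

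Temperature-responsive and chaperone genes split by direction. Cirbp, the cold-inducible RNA-binding protein (chromosome 10, 80165985 to 80172786), stood at 136, 143 and 131 CPM at ZT6 and at 85.8, 72.4 and 82.5 CPM at ZT18. It rose by 0.77 ± 0.16 on the log2 scale (adjusted p = 0.0382, edgeR) and was called in 8 of 17 alternative fits. Diet-fed ZT0 and ZT12 averaged 95.2 and 90.2 CPM, nearer ZT18. Rbm3, a cold-shock protein of the same family, stood at 37.8, 42.8 and 42.8 CPM at ZT6 and at 28.3, 28.9 and 26.8 CPM at ZT18, without overlap, but was not called (log2 0.56, adjusted p = 0.346). Cirbp was the only called member of the 8 temperature-linked RNA-binding genes, whose median was 0.04.

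Of 24 heat shock genes, 1 was called lower at ZT6 and none higher. All 24 fitted changes were below 0, with a median of -0.51, and in 20 genes the ZT6 libraries lay below all ZT18 libraries, against 9.73% of all genes tested. St13, a co-chaperone that links HSP70 to HSP90, stood at 156, 158 and 139 CPM at ZT6 and at 201, 206 and 244 CPM at ZT18 and fell by 0.53 ± 0.11 on the log2 scale (adjusted p = 0.0454, edgeR), a call held in 9 of 17 alternative fits. Hspa8, the constitutive HSP70, stood at 583, 606 and 609.5 CPM at ZT6 and at 985, 852 and 903 CPM at ZT18 without passing the threshold (log2 -0.61, adjusted p = 0.0871). Hspd1, the mitochondrial HSP60 chaperonin, had -0.59 (adjusted p = 0.0526). Hsph1, an HSP110 protein, had the largest value of the list, -1.04 ± 0.28 (adjusted p = 0.122), with 172, 165 and 136 CPM against 389.6, 313 and 273 CPM.

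The count of called heat shock genes depended on the fit: DESeq2 called 13 of 24 lower, where it called 2.11% of its tested genes lower, and edgeR on the 6 libraries alone called 11 of 24, where it called 0.86% lower. On chow the list was mixed, with 5 members higher and 9 lower at ZT6, against 1.83% and 2.95% of all genes tested. A called difference between the diets was found for 9 of the 24, against 0.919% of all genes tested. Hsp90ab1, the constitutive HSP90, went from 1494 ± 82.8 CPM at ZT6 to 2067 ± 53.4 CPM at ZT18 (SD, n = 3) in diet-fed mice, a log2 change of -0.47 that was not called (adjusted p = 0.11). On chow its change was 0.43, and the difference between the diets was called (interaction -0.90, adjusted p = 0.0249, edgeR), but not without replicate 2 of chow ZT6 (adjusted p = 0.0741).

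Of 28 ER stress genes, 1 fell at ZT6 in diet-fed mice and none rose. A change below 0 was fitted for 26, with a median of -0.30, and 19 were lower without overlap of the libraries, against 9.73% of all genes tested. DESeq2 called 5 of 27 lower and edgeR on the 6 libraries alone 4 of 28, where they called 2.11% and 0.86% of their tested genes lower. The gene that fell was Hspa5 (BiP, chromosome 2, 34771970 to 34777547), the ER's HSP70 and the sensor that holds unfolded protein response kinases inactive. It stood at 809, 808 and 752 CPM at ZT6 and at 1193, 1223 and 1323 CPM at ZT18, a fall of 0.66 ± 0.10 on the log2 scale (adjusted p = 0.00242, edgeR). The libraries of each time lay close together and far from those of the other.

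On chow the median of the same list was 0.44, with 11 members called higher and 0 lower at ZT6, against 1.83% and 2.95% of all genes tested. Hspa5 averaged 1723 CPM at ZT6 and 1103 CPM at ZT18 on chow, a rise of 0.64 (adjusted p = 0.00302), and the difference between the diets was called (interaction -1.30, adjusted p = 0.000521, edgeR). Hsp90b1 (GRP94), the ER's HSP90, stood at 416, 399.6 and 385 CPM at ZT6 and at 546, 548 and 572 CPM at ZT18 in diet-fed mice. Its change of -0.47 was not called (adjusted p = 0.116), while its chow means were 1567 and 723 CPM and its interaction was -1.59 (adjusted p = 0.000521, edgeR). Pdia6, a protein disulfide isomerase, had -0.46 in diet-fed mice (adjusted p = 0.214), 0.99 on chow and an interaction of -1.45 (adjusted p = 0.00414, edgeR). Calr, the lectin chaperone calreticulin, and Pdia4 had interactions of -1.15 and -1.29, which were not called without replicate 2 of chow ZT6 (adjusted p = 0.0667 and 0.139, edgeR), whereas those of Hspa5, Hsp90b1 and Pdia6 were called in all 19 alternative fits. In all 11 of the 28 differed between the diets, against 0.919% of all genes. Diet-fed levels of Hspa5 at ZT0 and ZT12 were 943 and 789 CPM, so under the diet ZT18 was the highest time.

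The promoters of Hspa5, Hsp90b1 and Pdia6 are shown because each holds the ER stress response element, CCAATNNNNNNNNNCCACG, the site through which ATF6 acts on ER chaperone genes together with NF-Y. Sequences are 5′ to 3′ on the gene's strand from RefSeq (GRCm38.p6), with the element in capitals. For Hspa5 only the element and its flanks are given, chr2:34772020-34772048 on the plus strand, which lies before the RefSeq start but inside the first exon of a GENCODE model that starts further upstream. The other sequences stop where a GENCODE exon begins. Hsp90b1 is chr10:86705510-86705694 on the minus strand and Pdia6 is chr12:17266339-17266544 on the plus strand.
Hspa5: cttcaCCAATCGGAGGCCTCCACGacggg
Hsp90b1: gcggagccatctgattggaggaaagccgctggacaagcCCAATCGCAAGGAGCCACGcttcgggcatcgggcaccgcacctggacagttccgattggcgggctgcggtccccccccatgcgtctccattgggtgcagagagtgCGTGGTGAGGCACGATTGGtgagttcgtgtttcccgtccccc
Pdia6: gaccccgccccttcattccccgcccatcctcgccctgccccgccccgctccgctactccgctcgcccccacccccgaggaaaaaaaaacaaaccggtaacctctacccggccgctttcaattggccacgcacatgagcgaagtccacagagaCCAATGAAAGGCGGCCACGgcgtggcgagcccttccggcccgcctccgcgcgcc
Hsp90b1 holds the element once on each strand. On either strand it occurs in 0.119% of the 32851 windows, in 8 of the 25 ER stress genes that have a window (Calr, Canx, Creld2, Dnajc3, Hsp90b1, Hspa5, Pdia6 and Syvn1) and in none of 19 heat shock genes. These genes are known for the element, so the count describes the list and says nothing of what bound there in these cells.

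Secretory pathway genes outside that list fell as well. Arf4, a Golgi and ER trafficking GTPase, fell by 0.57 ± 0.09 on the log2 scale (adjusted p = 0.00571), with 159.5, 173.8 and 159.7 CPM at ZT6 and 234, 276 and 224 CPM at ZT18. Tram1 and Spcs3, parts of the ER translocation and signal peptidase machinery, fell by 0.52 and 0.48, and Ube2j1, a ubiquitin-conjugating enzyme of ER-associated degradation, by 0.45 (adjusted p = 0.0138, 0.0395 and 0.0311, edgeR). These 4 genes were grouped with Hspa5 after their values were seen.

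Globin genes and some genes of plasma proteins fell at ZT6. Of 15 erythroid genes tested, 5 fell and none rose, against 0.228% and 0.138% of all genes, and the median was -1.32. Of the other 10 members, 4 had a change above 0, the highest 2.71 for Klf1, which averaged under 1 CPM at both times. The list summed to 1399–1696 CPM at ZT6 and 2746–4792 CPM at ZT18. Hbb-bs, an adult β-globin gene (chromosome 7, 103826534 to 103828096), stood at 890, 769 and 730 CPM at ZT6 and at 1472, 2272 and 2500 CPM at ZT18, a fall of 1.39 ± 0.21 on the log2 scale (adjusted p = 0.00237, edgeR). Hba-a1, Hba-a2 and Hbb-bt fell by 1.38, 1.41 and 1.32, but near-identical globin copies share reads, so the split among them is uncertain. Alas2, the erythroid enzyme that starts haem synthesis, stood at 47.7, 45.7 and 42.8 CPM at ZT6 and at 99.7, 166 and 159.5 CPM at ZT18, a fall of 1.64 ± 0.23 (adjusted p = 0.00101, edgeR). In each of these 5 genes replicate 1 of ZT18 was the lowest of its group. No called difference between the diets was found for any of them, and globin levels at diet-fed ZT0 and ZT12 (Hbb-bs 1683 and 1486 CPM) lay above ZT6 and below the ZT18 mean.

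Of 30 hepatocyte genes, 1 was called lower, against 0.228% of all genes. A change below 0 was fitted for 27, with a median of -0.77, and 19 were lower without overlap, against 9.73% of all genes. Apoa1, the main protein of high-density lipoprotein, stood at 30.8, 43.8 and 48.6 CPM at ZT6 and at 98.4, 119 and 109 CPM at ZT18, a fall of 1.41 ± 0.21 (adjusted p = 0.00273, edgeR). Serpina3k, a secreted protease inhibitor, stood at 4.26, 3.50 and 4.63 CPM at ZT6 and at 22.2, 19.6 and 14 CPM at ZT18, a fall of 2.17 ± 0.30 (adjusted p = 0.000889, edgeR). Hpx (hemopexin, the haem-binding plasma protein) fell by 1.84 and F2 (prothrombin) by 1.67, and Hrg (histidine-rich glycoprotein), at no more than 3 CPM, fell by 3.74. Serpina3k, Hpx, F2 and Hrg lie outside the list of 30 hepatocyte genes and were grouped with Apoa1 after their values were seen. Alb, the albumin gene and the best-known hepatocyte transcript, stood at 673, 449.9 and 326 CPM at ZT6 and at 498, 624 and 632 CPM at ZT18, with overlap and no call (log2 -0.28, adjusted p = 0.84). Summed over the list, 1607–2799 CPM at ZT6 and 2578–3226 CPM at ZT18 overlapped too. DESeq2 called 7 of 28 lower and edgeR on the 6 libraries alone 8 of 28, where they called 2.11% and 0.86% lower. For Serpina3k, Hpx, Apoa1 and Hrg the diets differed (interaction -2.56, -3.48, -1.54 and -5.02, adjusted p = 0.0074, 0.00681, 0.0267 and 0.01, edgeR), and Hpx moved in opposite directions, rising by 1.65 at ZT6 on chow. Without replicate 2 of chow ZT6 none of these 4 interactions was called (adjusted p = 0.0768, 0.0681, 0.226 and 0.0696, edgeR). How much red cells and hepatocytes in the preparations weighed in other values was not tested.

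**Figure D4:**
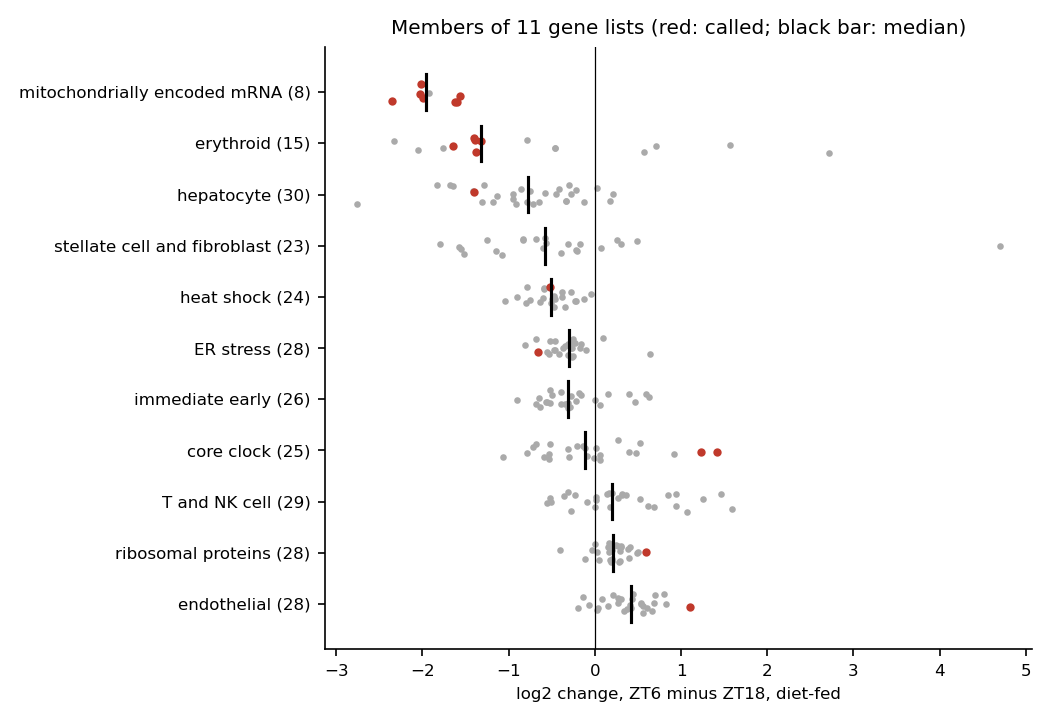
Fitted log2 change, ZT6 minus ZT18, in diet-fed mice (x axis) for the tested members of 11 gene lists, with the number tested in brackets, called members in red and the list median as a bar. Heat shock genes all lie below 0 around -0.51, mitochondrial mRNAs around -1.96, and ribosomal protein and endothelial genes mostly above 0.

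Of 28 endothelial markers, 1 rose and none fell, against 0.138% and 0.228% of all genes. A change above 0 was fitted for 25, with a median of 0.42, and 6 were higher without overlap, against 9.09% of all genes. DESeq2 called 4 of 28 higher, where it called 2%, and edgeR on the 6 libraries alone 1. The gene that rose was Flt4, the lymphatic and sinusoidal receptor VEGFR3 (chromosome 11, 49609263 to 49652739), at 86.2, 155 and 118 CPM at ZT6 and 59.7, 48.1 and 59.6 CPM at ZT18, a rise of 1.10 ± 0.19 (adjusted p = 0.00753, edgeR). Outside the list, and set beside it after their values were seen, Tns2, Cyyr1 and Cdh4 rose by 0.88, 1.11 and 2.60. Cdh4 was low throughout, at 3.43, 4.37 and 5.62 CPM against 1.08, 0.579 and 0.556 CPM, and was called in 12 of 17 alternative fits. Notch1, a receptor active in endothelium and set there in the same way, rose by 0.69, with 233, 239.5 and 236 CPM against 169, 136 and 134 CPM. Stab1, a sinusoidal scavenger receptor, had 0.80 without a call (adjusted p = 0.109). On chow the median was 0.52 and Flt4 rose by 0.73 (adjusted p = 0.0407), and the difference between the diets was not called (interaction 0.37, adjusted p = 0.61). In diet-fed mice Flt4 was 57.2 and 72.6 CPM at ZT0 and ZT12, and ZT6 alone stood above.

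Marker levels differed between the diets at both times. The 28 endothelial markers summed to 3049–4915 and 2599–3578 CPM at ZT6 and ZT18 under the diet and to 62340–66480 and 44660–47270 CPM on chow. Flt4 itself averaged 120 CPM at ZT6 under the diet and 1383 CPM on chow. The 29 T and NK cell markers went the other way, with 1064–1258 CPM at ZT6 and 3224–3760 CPM at ZT18 on chow, each below the diet-fed sums at the same time. The 30 hepatocyte markers summed to 732–1269 CPM at ZT6 and 885–1142 CPM at ZT18 on chow, also below the diet-fed sums. The 23 stellate cell and fibroblast markers were higher on chow, at 569.5–751.5 and 848–1329 CPM. Diet and chow libraries thus differed in marker RNA of several cell types, and the part of this in each difference between the diets given here was not tested.

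Of 28 ribosomal protein genes, 1 was called higher, Rplp1 (log2 0.59, adjusted p = 0.0222), against 0.138% of all genes. A change above 0 was fitted for 24, with a median of 0.21, and 18 were higher without overlap, against 9.09% of all genes. DESeq2 called 7 of 27 higher and edgeR on the 6 libraries alone 5 of 28, where they called 2% and 0.543% higher. Outside that list Rps15a stood at 200.7, 200 and 197.6 CPM at ZT6 and at 122, 119 and 114 CPM at ZT18, a rise of 0.75 ± 0.13 (adjusted p = 0.00753, edgeR). Rps21 and Rpl41 rose by 0.68 and 0.61. For Rps15a the diets differed (interaction 0.84, adjusted p = 0.0396, edgeR, but 0.221 without replicate 2 of chow ZT6), with chow means of 65.1 and 69.1 CPM. The list's summed level was 7101–7469 CPM at ZT6 and 5965–6238 CPM at ZT18. Rplp1 was no longer called when scaling used library totals alone, where the median was 0.14.

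**Figure D5:**
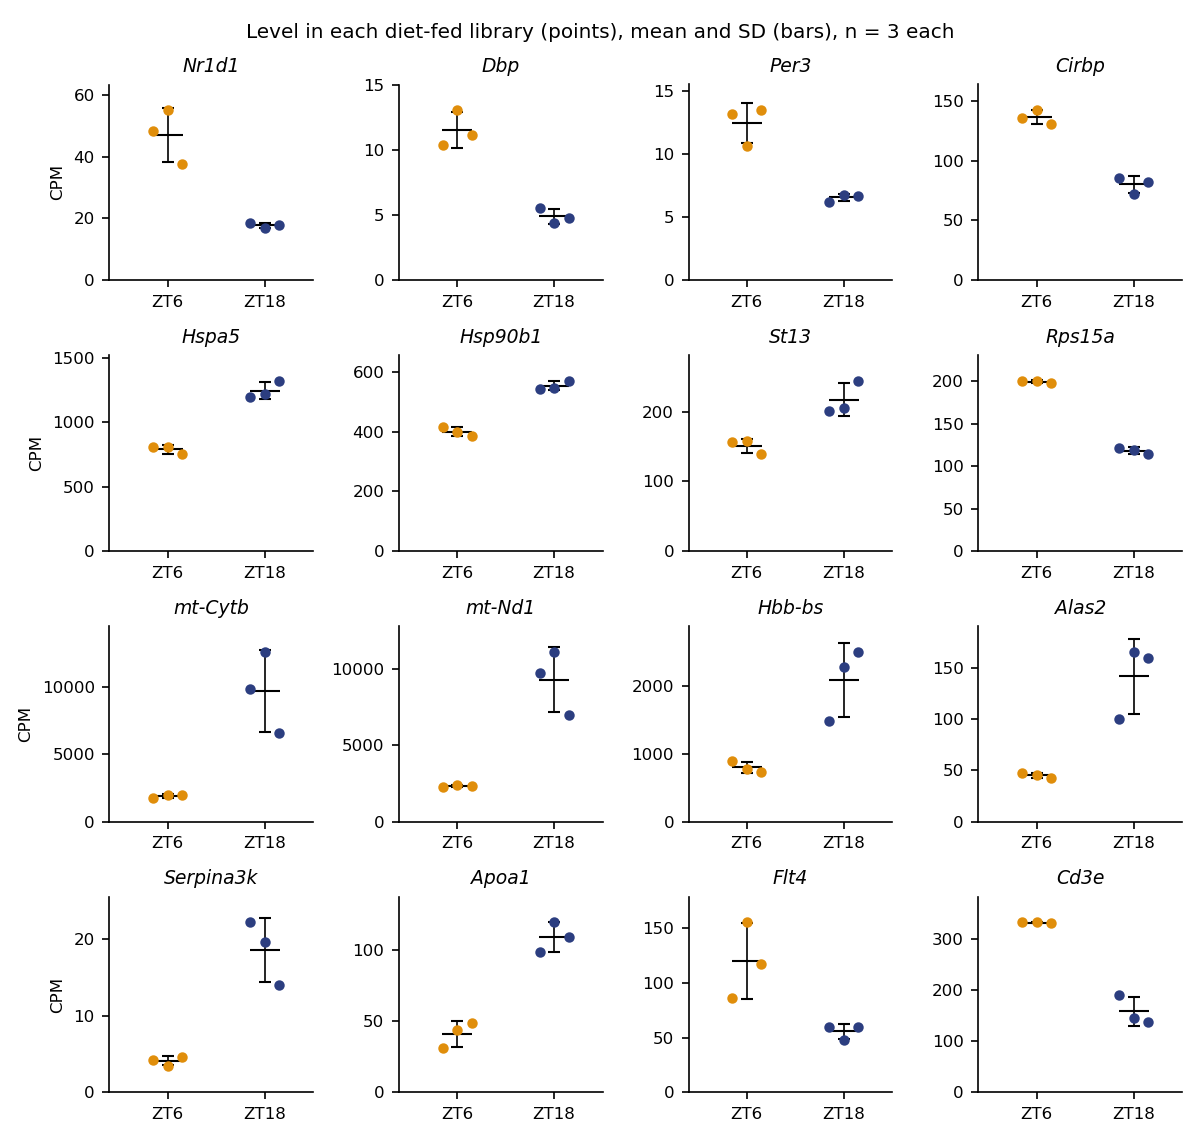
Level in CPM (y axis, from 0) of 16 genes in each of the 3 diet-fed libraries at ZT6 (orange) and at ZT18 (blue), with mean and SD as bars. In all 16 the groups do not overlap; Per3, Hsp90b1 and Cd3e were nevertheless not called.

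No T and NK cell marker was called among 29 tested, with a median of 0.20, while 7 reached an unadjusted p under 0.05, all of them higher at ZT6, and 2217 of all genes tested did (edgeR). Without overlap 11 markers were higher and 3 lower at ZT6, against 9.09% and 9.73% of all genes, and the sums of the groups did not overlap. Cd3e, a chain of the T cell receptor complex, stood at 334, 334 and 331 CPM at ZT6 and at 192, 147 and 139 CPM at ZT18 (log2 1.07 ± 0.37, adjusted p = 0.292). The cytotoxic granule gene Gzmk had 1.59 and the transcription factor Eomes 1.25 without a call (adjusted p = 0.198 and 0.172). edgeR on the 6 libraries alone called 6 of the 29 higher, where it called 0.543% of its tested genes higher, and DESeq2 called 2 of 29, where it called 2%. On chow the median was -1.56 and 17 members were called lower at ZT6, against 2.95% of all genes tested. The interaction was called for Ccl5, Nkg7, Lck and Klrb1c, against 0.919% of all genes tested. Without replicate 2 of chow ZT6 those of Ccl5, Nkg7 and Lck were not called (adjusted p = 0.211, 0.167 and 0.226, edgeR). Trbv16, a T cell receptor variable segment, rose by 3.46 ± 0.69 (adjusted p = 0.0254, edgeR), but its ZT6 libraries spread from 19.9 to 199.8 CPM, while those of ZT18 held at most 9.95 CPM. Coch, the cochlin gene, showed a similar spread, with 23.1, 21.7 and 81.4 CPM at ZT6 and 0.912, 3.18 and 0.730 CPM at ZT18, a rise of 4.66 ± 0.84 (adjusted p = 0.0123, edgeR). Diet-fed ZT0 and ZT12 libraries held 149 ± 81.8 and 29.2 ± 32.3 CPM of Coch (mean and SD, n = 3 each). ZT18 thus had the lowest mean of the diet-fed times, with a wide spread at ZT12.

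Other called genes fall into small groups made after their values were seen. Spen, a corepressor of nuclear receptor and Notch signalling, rose by 1.21, Zfp553 by 1.03, Scaf1 by 0.89, Midn by 0.78 and Ldb1 by 0.74. For Spen the diets differed (interaction 1.90, adjusted p = 0.0265, edgeR, but 0.0931 without replicate 2 of chow ZT6). Plcg1, Zdhhc5, Prrc2a, Iffo1 and Pfdn5 rose by 0.51 to 0.70. RNA-processing genes and nuclear RNAs fell: the long noncoding RNAs Tug1 by 0.79 and Neat1 by 0.70, Rbm17 by 0.57, the splicing factor Srsf7 by 0.46, the helicase Ddx5 by 0.46 and Hnrnpc by 0.48. Ddx5, an abundant transcript, stood at 1591, 1657 and 1808 CPM at ZT6 and at 2357, 2335 and 2281 CPM at ZT18, and fell alike on chow (-0.46, adjusted p = 0.00747).

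Signalling and metabolic genes were among the others that fell. Cxcl12, the chemokine that retains leukocytes through CXCR4, stood at 14.5, 16.4 and 17.0 CPM at ZT6 and at 43.9, 52.3 and 46.1 CPM at ZT18, a fall of 1.57 ± 0.27 (adjusted p = 0.00807, edgeR), and was the only called gene of 34 chemokines and cytokines. Tiparp, a target of the aryl hydrocarbon receptor, fell by 1.09 and Anxa1, a mediator of glucocorticoid action on inflammation, by 1.00. Dgat1, which makes triglyceride, fell by 0.87 and was the only called member of 20 fatty acid synthesis genes. Tap2, a peptide transporter for MHC class I, fell by 0.72 and Arrdc3 by 0.78. Fmo5, Rp2, Snap23, Tmem123, Chmp5, Cmtm6, Spop, Vps26a and Paip2 fell by 0.44 to 0.85.

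Of the 42 lists, 13 had a called member and 29 had none, with medians from -0.95 to 0.30 among the 29. The 29 hold 617 tested genes, of which 83 reached an unadjusted p under 0.05 (edgeR), against 2217 of all 22409 genes tested. DESeq2 called 5 of its 520 higher and 10 lower, where it called 2% and 2.11% of all its tested genes. edgeR on the 6 libraries alone called 7 of 606 higher and 22 lower, where it called 0.543% and 0.86%. In edgeR's fit of all libraries no member passed the threshold among 30 clock output genes (29 tested), 28 cholesterol genes, 21 tested genes of fatty acid oxidation, 30 interferon-stimulated genes, 30 cell cycle genes, 28 structural matrix genes, 30 TGFβ pathway genes and 23 stellate cell and fibroblast genes. The stellate list had a median of -0.58, and Dcn, the matrix proteoglycan decorin, was lower at ZT6 without overlap (44.7, 73.3 and 44.6 CPM against 129.9, 87.3 and 125 CPM) but not called (log2 -1.07 ± 0.49, adjusted p = 0.472). Dcn was called in only 2 of 17 alternative fits, with an adjusted p of up to 0.737 over all of them (edgeR and DESeq2). Those 2 were edgeR on the 6 libraries alone (adjusted p = 0.0452) and edgeR with no filter (1.21e-10), where 445 genes were called instead of 82. Des, the muscle intermediate filament desmin, a stellate cell marker, had -1.58 (adjusted p = 0.107, edgeR) and was called in 3 of 17 alternative fits. Those 3 were DESeq2 (adjusted p = 0.00643) and edgeR with no filter (0.03) and with a mean CPM of at least 5 (0.0457). Among 26 immediate early genes, which respond to handling and stress, none was called, the median was -0.31, and 13 were lower and 1 higher at ZT6 without overlap, against 9.73% and 9.09% of all genes. An unadjusted p under 0.05 (edgeR) was reached by 8, all lower, against 2217 of all 22409 genes in either direction. DESeq2 called 1 and edgeR on the 6 libraries alone 4, all lower, where they called 2.11% and 0.86% of their tested genes lower. The list's summed level was 15120–16390 CPM at ZT6 and 18420–20410 CPM at ZT18, and its part in the results above was not tested.

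Against chow, the mid-light to mid-dark difference in diet-fed mice called fewer genes. The chow comparison, with 2 and 3 libraries, called 1071 genes (4.78%), 410 higher and 661 lower at ZT6. Of the 82 genes, 15 were also called on chow, 18.3% of the diet-fed calls and 1.4% of the chow calls, and 11 of the 15 had the same direction. The other 4 were Hpx, Arrdc3, Hspa5 and St13, all lower at ZT6 under the diet and higher on chow. The difference between the diets itself was called for 206 genes (0.919% of those tested), 109 with a larger and 97 with a smaller value under the diet, and 26 of the 82 were among them. Pim3, a serine/threonine kinase, was such a gene outside the 82, with a change of -0.34 under the diet, 0.95 on chow and an interaction of -1.28 (adjusted p = 0.000816, edgeR). Without replicate 2 of chow ZT6 the chow comparison called 88 genes and the interaction 35. The chow count was 475 without replicate 1 of ZT6 and 813, 685 and 698 without replicates 1, 2 and 3 of ZT18. The interaction count was 222, 140, 113 and 124 without those 4 libraries in the same order, 87, 99 and 69 without replicates 1, 2 and 3 of diet-fed ZT6, and 136, 71 and 65 without those of diet-fed ZT18.

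The called genes were also placed among all 4 diet-fed times. In 78 of the 82 the ZT18 mean lay outside the range of the other 3 times, and in 59 the ZT6 mean did, with 56 in both. The average of ZT0 and ZT12 was nearer ZT6 for 49 genes and nearer ZT18 for 33. Of the 31 genes higher at ZT6, 30 had their lowest level at ZT18, and of the 51 lower ones 48 had their highest there. The genes were chosen on ZT6 against ZT18, which favours both as extremes, so these counts are a description.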

How the data were processed

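RNA-seq of mouse liver cells labelled HSC was used. STAR 2.7.9a, HTSeq and DESeq2 and the build GRCm38 (mm10) are named in the submitters' processing notes as used by the authors. The isolation of cells, the annotation and the strand setting were not given in the sources used here. Where strand is unknown, a gene's reads cannot be separated from those of an antisense or overlapping gene. Raw read counts, whole numbers by the values, were deposited for 55367 symbols, and each entry has a name. The deposited normalised table holds the same counts divided by 1 factor per library and was not used.

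The main test was edgeR's quasi-likelihood F test (version 4.0.16, with limma 3.58.1, R 4.3.3). After filterByExpr over the 8 groups 22409 genes stayed. TMM factors scaled the libraries, and all 22 entered 1 model, so that every group shares the spread (glmQLFit, then glmQLFTest). Contrasts were ZT6 minus ZT18 under the diet, the same on chow, and their difference (interaction). A gene is called at a Benjamini-Hochberg adjusted p under 0.05. Between replicates of a group the chi-square per degree of freedom was 16.7–34.3, so none were repeats of a library. In a principal component analysis of the 6 libraries, the first component (24.5% of the variance) parted ZT6 from ZT18. On chow, replicate 2 of ZT0 and replicate 1 of ZT18 stood apart, and fits without both were made.

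The 42 gene lists and the members were chosen with earlier results of these data known. The rule for named genes took the 12 higher and 12 lower called genes with the largest change, a mean log2 CPM of at least 2, no overlap and a plain symbol, every core clock gene, 4 genes of each other list with the smallest p, and the 6 interaction genes with the smallest p. The text gives values for part of the clock and list genes, and the plots show the rest of the clock genes. Other genes, among them most of the rest of the 82, were named after their values were seen, and some called genes are not reported here. Log2 CPM used a prior count of 2. Alternatives were RLE scaling, library totals, other filters (none, or CPM averaging 5 or more), a replicate block, DESeq2 1.42.0 and fewer libraries. Each ZT6 and ZT18 library was also left out in turn, for the diet-fed contrast only those of diet-fed mice. No ZT0 or ZT12 library was left out alone. The statistical scripts were tested on simulated data. There, changes were placed only in genes with a mean CPM above 4, so recovery at lower levels was not measured. In those genes 43% of 2-fold and 96% of 4-fold changes were recovered in the diet-fed contrast, and 19% and 69% in the interaction. A gene without a call may therefore still differ by 2-fold. Positions are from GENCODE M21 (21935 of 22409 symbols found), and promoters from RefSeq (GRCm38.p6).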

Additional observations from a re-analysis of the deposited data

Results flagged for a closer look

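A difference between the diets in the ZT6 to ZT18 contrast (interaction log2, diet-fed minus chow, adjusted p under 0.05 in edgeR) marked these genes named in the text. Among clock genes and their targets the values were -2.35 for Nr1d1, 1.49 for Per3, 1.52 for Cry1, 1.08 for Per1 and 2.44 for Wee1, and among kinases -1.28 for Pim3. Among ER and heat shock genes they were -1.30 for Hspa5, -1.59 for Hsp90b1, -1.45 for Pdia6, -1.15 for Calr, -1.29 for Pdia4, -0.60 for Arf4, -0.98 for St13, -0.90 for Hsp90ab1 and -1.47 for Stip1. Among mitochondrial genes they were -1.64 for mt-Cytb, -2.23 for mt-Tq, -2.09 for mt-Tm, -1.73 for mt-Nd2, -1.63 for mt-Nd4, -1.53 for mt-Nd1, -1.22 for mt-Nd5, -1.12 for mt-Nd6 and -1.10 for mt-Co1. Among plasma proteins of hepatocytes they were -2.56 for Serpina3k, -3.48 for Hpx, -1.54 for Apoa1 and -5.02 for Hrg. Among lymphocyte genes they were 2.61 for Nkg7, 1.88 for Lck, 2.76 for Ccl5 and 5.19 for Trbv16. The others were 1.90 for Spen, 0.86 for Mir6236, 1.59 for CT010467.2, 0.84 for Rps15a, -0.71 for Hnrnpc, -1.39 for Arrdc3, -1.14 for Snap23 and 0.90 for Zdhhc5. Without replicate 2 of chow ZT6, 18 of these 40 interactions were still called, among them those of Nr1d1, Hspa5, Hsp90b1, Pdia6, Pim3, Wee1, St13 and mt-Cytb. Among the 22 that were not were those of Per1, Per3, Cry1, Serpina3k, Hpx, Apoa1, Spen and Rps15a. With any single library of diet-fed ZT6, diet-fed ZT18 or chow ZT18 left out, 22 to 29 of the 40 were called.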

How the results depend on the processing

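The 82 calls of the diet-fed comparison became 445 with no filter on low counts, 200 with a mean CPM of at least 5 and 474 with DESeq2. They became 231 without both chow libraries that stood apart, 243 on the 6 libraries alone and 187 on the 12 diet libraries. On the 6 with a replicate block 29 were called, and 30 to 64 with 1 of the 6 compared libraries left out. There were 17 alternatives. All 82 kept their direction in each one that fitted them (15 genes have no test in 1 or 2), and 17 of them were called in every alternative that fitted them, among them Nr1d1, mt-Cytb, Alas2, Serpina3k and CT010467.1. The chow count of 1071 became 1823 with no filter and 2125 with DESeq2, and 88 to 813 with 1 library left out. The interaction count of 206 became 1119 with no filter, 372 with a mean CPM of at least 5, 913 with DESeq2 and 742 without both chow libraries, and 35 to 222 with 1 library left out. Scaling by library totals moved the median log2 change of all genes to -0.055 under the diet, -0.19 on chow and 0.15 in the interaction. With it, chow calls split 198 higher and 1238 lower (main 410 and 661) and interaction calls 140 and 69 (main 109 and 97). Without a filter the interaction split was 696 and 423, and without both chow libraries 506 and 236.

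Over all genes, the deviations of same-numbered diet-fed ZT6 and ZT18 libraries had correlations of -0.03, -0.007 and 0.004. These values show no pairing over the genes as a whole. They cannot exclude a pairing that affects part of the genes. With the replicate block in the fit of all libraries, 73 genes were called under the diet, 1023 on chow and 181 in the interaction. The 3 genes with a reversed value were uncalled: with 1 library left out, Lrat ran from -1.03 to 0.062 (above 0 without replicate 3 of ZT18), Per1 from -0.18 to 0.017 (above 0 without replicate 1 of ZT18) and Col1a1 from -0.39 to 0.023 (above 0 without replicate 3 of ZT6). The cause of these shifts was not tested.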
